A study of Caenorhabditis elegans with 23 samples.

Results

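The pals genes of Caenorhabditis elegans were followed across 4 groups of whole adult worms, in messenger RNA (mRNA) and in small RNA. Members were all genes whose symbol starts with pals-, which gave 38 of the 46904 genes in each count table. pals-35 and pals-36 could not be matched to a row of the tables and were not analysed here. The groups were MY16_Star, MY16, N2_Star and N2. N2 is the reference laboratory strain and MY16 is a wild isolate. The labels do not say what Star stands for, and N2_Star and MY16_Star are used here only as names of groups. All worms were adults of day 1, grown at 20 °C on the bacterium E. coli OP-50. There were 12 mRNA libraries, 3 in each group, and 11 small RNA libraries, 3 in each group except N2_Star, which had 2. The sample labels give this count, whereas the series' design text says that the small RNA sample that failed was of MY16_Star; the labels were followed, and the conflict touches every small RNA value of the Star groups. Replicates are described as biological in the series' design, without saying how the cultures were kept apart.

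The pals family is expanded in C. elegans, and the biochemical activity of its proteins is not known. Its best studied members act in the intracellular pathogen response, a transcriptional programme that worms switch on when microsporidia or the Orsay virus infect the intestine, or when protein turnover is disturbed. pals-22 and pals-17 hold this programme off, while pals-25, pals-16 and pals-20 promote it, so that paired members act against each other. Many other members, such as pals-5, are among the genes that the programme induces. pals-22 mutants are also known for changed silencing of transgenes and changed RNA interference. Small RNAs that pair with a gene's transcript can silence that gene in C. elegans, and they can pass to later generations.

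All 38 members are annotated as protein coding in RefSeq's annotation of WBcel235, with 15 on chromosome I, 14 on III, 2 on IV and 7 on V. With a gap of at most 20 kb between neighbours, 33 of them fell into 6 clusters. The largest was 61.3 kb on chromosome I with 14 members. On chromosome III, the first cluster, at 120435 to 137973, holds pals-24, pals-23, pals-22 and pals-25. The second one on III, at 1376945 to 1406263, holds pals-40, pals-21, pals-20, pals-17, pals-16, pals-19 and pals-18. The next on III holds pals-26, pals-27 and pals-28, and pals-37, pals-39 and pals-38 lie together on V.

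Reads assigned to genes numbered 9362590 to 23150198 per mRNA library and 1778321 to 19563562 per small RNA library. Levels are given as CPM, counts per 1000000 counts of a library, with the library size scaled by edgeR's normalization factor. The floor used below is 3 counts, worth 0.127 to 0.311 CPM in mRNA libraries and up to 1.95 CPM in the shallowest small RNA library. Reads of MY16 were aligned to the N2 genome, so sequence divergence or loss of a gene in MY16 can lower its counts without any change in its RNA. Reads of members that are near-identical copies of each other may be split or lost, which makes the level of each copy uncertain. All 17 markers of the tissues of a whole worm were found in every mRNA library. In whole worms, fewer cells that make an RNA and less RNA per cell cannot be told apart.

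The mRNA library N2_Star replicate 1 stood apart in this family. Its pals genes summed to 120.5 CPM, against 42.19 to 66.57 CPM in the other mRNA libraries. It was the highest library for 14 of the 19 tested members, whereas it was the highest for 22% of all 13983 tested genes. In the same library dpy-7, a cuticle collagen gene that is high around moults, had 42.2 CPM, and it had 0.207 to 3.16 CPM in the others. This library was also the highest for 4 of the 17 markers, against 22% of all tested genes. Among these markers were the intestinal genes elt-2, at 24.8 CPM, and ges-1, at 62.6 CPM. Within N2_Star, the intestinal genes vit-2 and vit-6 were lowest in this library. vit-2 had 22700 CPM in it, against 28100 and 24000 in N2_Star replicates 2 and 3. vit-6 had 22100 CPM, against 32200 and 29300. Both were still above all N2 libraries, which had 14500 to 16700 CPM of vit-2 and 19700 to 21900 CPM of vit-6. Between MY16_Star and N2_Star, the comparison with the most members called in mRNA, 4 of the 17 markers were higher in MY16_Star and 3 were lower, against 7.69% and 14.8% of all tested genes. The 4 were the germline genes glh-1, pgl-1, rme-2 and puf-5, and the 3 were the muscle gene unc-54, the sperm gene spe-9 and dpy-7. With N2_Star replicate 1 left out spe-9 and dpy-7 lost their calls and the other 5 kept theirs, and of the 7 genes only rme-2 was called with each library left out in turn. Between MY16 and N2, edgeR called 0 of the 17 in mRNA, against 4.03% of all tested genes. At an unadjusted p under 0.05 there were 2, against 12.9% of all tested genes. The markers summed to 42800 to 47800 CPM in MY16_Star, 31800 to 49900 in MY16, 50000 to 66400 in N2_Star and 40500 to 45400 in N2, most of it from the yolk protein genes vit-2 and vit-6. The part of moulting or of intestinal RNA in the pals values of N2_Star replicate 1, and of germline RNA in the difference between the Star groups, was not tested. mRNA results called with the N2_Star group are given below with and without it.

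**Figure D1:**
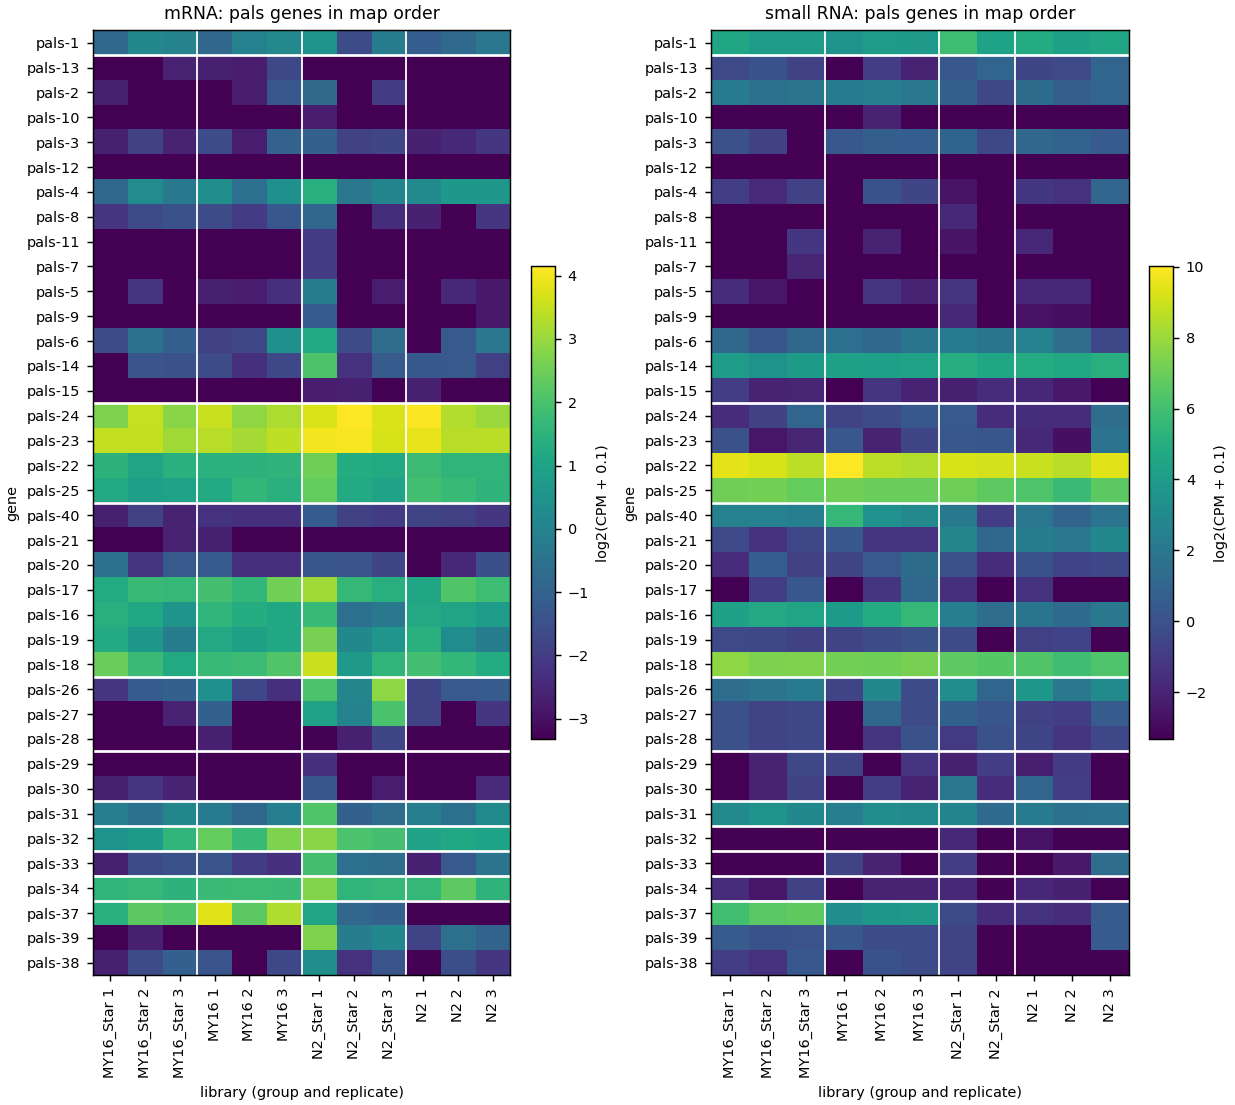
Level of each pals gene in each library as log2(CPM + 0.1), mRNA on the left and small RNA on the right, brighter for higher levels, with genes in chromosome order down the page, horizontal lines between clusters and vertical lines between groups. In mRNA pals-23 and pals-24 are the brightest rows and N2_Star replicate 1, with a pals sum of 120.5 CPM, the brightest column, and in small RNA pals-22, pals-25 and pals-18 are the brightest rows.

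The family was scarce in mRNA and more abundant in small RNA. It took 0.00402% to 0.0129% of the gene counts in mRNA libraries and 0.064% to 0.128% in small RNA libraries. In mRNA 8 members had at most 3 counts in every library, and 13 members had more than 3 counts in all 12. In small RNA 9 members had at most 3 counts in every library, and 7 members had more than 3 in all 11. pals-12 had no count anywhere. Its annotated span lies wholly within that of pals-3, over 2287 bases, and whether reads there could be assigned to pals-12 was not tested. A filter on low counts left 19 members for tests in mRNA and 17 in small RNA, with 10 tested in both and 12 in neither.

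Different members led in the 2 kinds of RNA. Per kilobase of annotated gene span, the highest mRNA levels over all libraries were those of pals-23, at 3.66 CPM per kb, pals-34, at 3.19, pals-17, at 2.66, pals-18, at 2.64, and pals-24, at 2.56. In small RNA the order was pals-22, at 282 CPM per kb, pals-18, at 86.9, pals-25, at 33, pals-16, at 11.3, and pals-1, at 10.6. The first 3 kept this order in each group. After them came pals-37, at 21.8, and pals-16, at 15.7, in MY16_Star, pals-16, at 21.4, and pals-40, at 20.4, in MY16, and pals-1 and pals-14 in N2_Star, at 18.8 and 9.93, and in N2, at 11.3 and 10.6. pals-23 and pals-24 together made up 24.3% to 59.1% of the pals counts in mRNA libraries but 0.0479% to 0.621% of those in small RNA libraries. pals-22 alone made up 45.6% to 71.5% of the pals small RNA counts, and pals-22, pals-25 and pals-18 together 77.8% to 92%. Which strand the small RNA counts came from is not stated in the labels. The deposited small RNA counts carry the letters AS in their name, without an explanation of them. The counts are therefore not read here as sense or antisense. The 216 miRNA genes took 0.00209% to 0.0367% of the small RNA gene counts.

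Between MY16 and N2, mRNA of 1 of 19 tested members passed the test and was higher in MY16, against 1.72% of all tested genes higher and 2.31% lower. In the same comparison of small RNA, 5 of 17 members were higher and 1 was lower, against 8.55% and 10% of all tested genes. Between MY16_Star and N2_Star, mRNA of 1 member was higher and of 5 was lower, against 7.69% and 14.8% of all tested genes. In small RNA 4 members were higher and 2 were lower in MY16_Star than in N2_Star, against 5.82% and 8.66% of all tested genes. pals-16, pals-18, pals-21 and pals-37 passed the small RNA test in both isolate comparisons, with the same sign in each. The counts depended on single libraries. For MY16_Star against N2_Star in mRNA, 2 members were called without MY16_Star replicate 1, 3 without MY16_Star replicate 2 and 5 without N2_Star replicate 1, against 6 with all libraries. Over all tested genes the share called in these 3 fits was 8.88%, 9.01% and 25.5%, against 22.5% with all libraries. In small RNA that comparison gave 3 without N2_Star replicate 1, against 6, while the share of all genes called was 7.71%, against 14.5%. For MY16 against N2, mRNA gave 3 without the mRNA library N2_Star replicate 1, against 1, with 5.68% of all genes called, against 4.03%. Calls are from edgeR's quasi-likelihood test at an adjusted p under 0.05, with Benjamini-Hochberg adjustment over all tested genes. pals-37 was called in both kinds of RNA. The other members called in mRNA were pals-26, pals-27, pals-32, pals-33 and pals-39, and the other members called in small RNA were pals-2, pals-14, pals-16, pals-18, pals-21, pals-25 and pals-40.

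The median log2 fold change of the tested members is set here beside that of all tested genes. For MY16 against N2 it was 0.26 over the members and -0.02 over all genes in mRNA, and 0.26 and -0.003 in small RNA. The sign of these members' medians depended on single libraries. In mRNA the median was -0.15 without MY16 replicate 1 and -0.07 without MY16 replicate 3. In small RNA it was -0.28 without MY16 replicate 1. For MY16_Star against N2_Star it was -0.84 over the members and -0.12 over all genes in mRNA. Without N2_Star replicate 1 the members' median in that mRNA comparison was -0.03. In small RNA the medians of MY16_Star against N2_Star were -0.03 over the members and -0.02 over all genes.

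**Figure D2:**
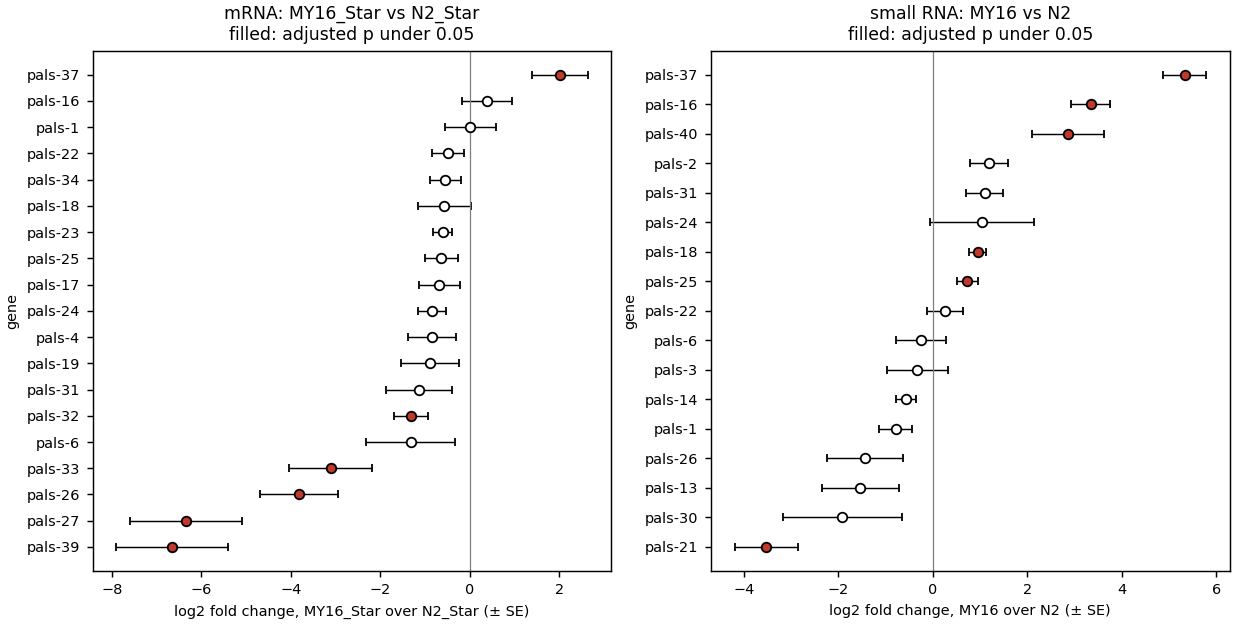
Log2 fold change with SE of each tested pals gene, for MY16_Star over N2_Star in mRNA on the left and for MY16 over N2 in small RNA on the right, with filled points for an adjusted p under 0.05 in edgeR's test. pals-37 is the highest point in both panels, at 2.01 and 5.32, and the lowest points are pals-39 in mRNA, at -6.65, and pals-21 in small RNA, at -3.53.

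pals-22 and pals-25, the repressor and the promoter of the response, lie 92 bases apart, and mRNA of neither passed edgeR's test in any comparison. pals-22 mRNA had 2.74, 1.94 and 2.59 CPM in MY16_Star, 2.62, 2.70 and 2.79 in MY16, 5.58, 2.38 and 2.21 in N2_Star, and 3.37, 2.87 and 2.88 in N2. pals-25 mRNA had 2.27, 1.76 and 1.88 CPM in MY16_Star, 2.22, 2.95 and 2.59 in MY16, 5.08, 2.27 and 1.87 in N2_Star, and 3.56, 3.20 and 2.79 in N2. For both genes N2_Star replicate 1 was the highest library, and the other libraries ran over 1.94 to 3.37 CPM for pals-22 and 1.76 to 3.56 CPM for pals-25. The log2 fold change of pals-22 mRNA was -0.17 ± 0.36 (SE) for MY16 against N2 and -0.49 ± 0.35 for MY16_Star against N2_Star. For pals-25 mRNA these were -0.30 ± 0.37 and -0.64 ± 0.37. For MY16 against N2 the adjusted p in edgeR's test was 0.961 for pals-22 and 0.903 for pals-25.

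Small RNA of pals-22 was the most abundant of the family and varied widely within groups. It had 714, 579 and 407 CPM in MY16_Star, 1030, 411 and 358 in MY16, 596 and 556 in N2_Star, and 470, 375 and 654 in N2. The highest and the lowest of these values both came from MY16, and all groups overlapped. The log2 fold change for MY16 against N2 was 0.26 ± 0.38 (SE), with an adjusted p of 0.722 in edgeR's test. MY16 replicate 1 and N2 replicate 3, the highest libraries of their groups, were also the shallowest small RNA libraries.

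Small RNA of pals-25 was higher in MY16 than in N2. It had 137, 150 and 117 CPM in MY16_Star, 139, 123 and 124 in MY16, 132 and 105 in N2_Star, and 82.1, 53.3 and 101 in N2. The 3 N2 libraries were the lowest of all 11. MY16 averaged 129 ± 9.15 CPM and N2 78.9 ± 24.2 CPM (SD, n = 3 each), a log2 fold change of 0.72 ± 0.22 (SE) with an adjusted p of 0.0409 in edgeR's test. This call was lost in 12 of 17 alternative analyses, among them those without any 1 of 10 libraries, and the adjusted p over all 17 ranged from 0.0132 to 0.156. MY16_Star against N2_Star gave a log2 fold change of 0.18 ± 0.24 and no call.

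pals-23 and pals-24, whose functions are not described, lie in the same cluster as pals-22, with nhr-280 and C29F9.2 between pals-23 and pals-22, and were among the most abundant members in mRNA. pals-23 mRNA had 10.9, 10.9 and 8.35 CPM in MY16_Star, 10, 8.65 and 10.7 in MY16, 16.2, 16.8 and 12.9 in N2_Star, and 14.7, 10 and 10.3 in N2. pals-24 mRNA had 6.35, 11.1 and 6.92 CPM in MY16_Star, 11.4, 7.33 and 9.32 in MY16, 13.0, 17.6 and 13.1 in N2_Star, and 17, 9.60 and 8.04 in N2. For both genes all MY16_Star libraries were below all N2_Star libraries. The log2 fold changes of MY16_Star against N2_Star were -0.61 ± 0.22 (SE) for pals-23 and -0.84 ± 0.32 for pals-24, with adjusted p of 0.0621 and 0.0729 in edgeR's test, so neither was called. They were -0.56 and -0.91 without N2_Star replicate 1, with adjusted p of 0.0947 and 0.0722. Their small RNA had group means of 0.372 to 1.16 CPM and 0.712 to 1.02 CPM, close to the floor.

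The second cluster on chromosome III holds the other antagonists, pals-17, which represses the response, and pals-16 and pals-20, which promote it. pals-17 mRNA had 2.33, 3.23 and 3.04 CPM in MY16_Star, 3.75, 3.00 and 5.80 in MY16, 8.30, 3.06 and 2.46 in N2_Star, and 2.06, 4.27 and 3.43 in N2. pals-16 mRNA had 2.45, 2.12 and 1.36 CPM in MY16_Star, 2.90, 2.39 and 2.07 in MY16, 3.27, 0.567 and 0.688 in N2_Star, and 2.18, 1.97 and 1.61 in N2. The groups overlapped for both genes, and neither passed the mRNA test in any comparison with all libraries. Without N2_Star replicate 1, pals-16 mRNA was called higher in MY16_Star than in N2_Star. pals-20 had at most 10 counts in any mRNA library and did not pass the filter for the test. It lies wholly within another annotated gene, Y82E9BR.5, so the source of its counts is uncertain. Its mRNA had 0.582, 0.118 and 0.324 CPM in MY16_Star, 0.341, 0.102 and 0.104 in MY16, 0.302, 0.283 and 0.197 in N2_Star, and 0, 0.082 and 0.254 in N2. pals-20 small RNA averaged 0.74 ± 0.682 CPM in MY16_Star, 1.44 ± 0.994 in MY16, 0.553 ± 0.474 in N2_Star and 0.706 ± 0.206 in N2 (SD, n = 3, 3, 2 and 3).

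Small RNA of pals-16 was higher in both MY16 groups than in the N2 groups. It had 19.4, 26 and 22.3 CPM in MY16_Star, 15.5, 29.6 and 46.9 in MY16, 5.39 and 2.62 in N2_Star, and 3.56, 2.41 and 3.90 in N2. The lowest MY16 library was above the highest N2_Star and N2 libraries. MY16 against N2 gave a log2 fold change of 3.33 ± 0.42 (SE), with an adjusted p of 0.000138 in edgeR's test, and MY16_Star against N2_Star gave 2.42 ± 0.45, with an adjusted p of 0.00373. Both calls held in all alternatives run. pals-17 small RNA, in contrast, had at most 14 counts in any library, and 5 libraries had none.

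pals-18, which lies at the end of this cluster and has no described role, showed a smaller difference in the same direction in small RNA. It had 217, 167 and 170 CPM in MY16_Star, 149, 132 and 153 in MY16, 105 and 88.7 in N2_Star, and 84.9, 60.3 and 80.5 in N2. The groups did not overlap in either isolate comparison. MY16 averaged 145 ± 11.5 CPM and N2 75.2 ± 13.1 CPM (SD, n = 3 each), a log2 fold change of 0.95 ± 0.18 (SE) with an adjusted p of 0.00311 in edgeR's test. For MY16_Star against N2_Star it was 0.92 ± 0.21 with an adjusted p of 0.01; this call was lost without N2_Star replicate 2, at an adjusted p of 0.115. pals-18 mRNA had 5.30, 3.29 and 2.20 CPM in MY16_Star, 3.18, 3.36 and 4.24 in MY16, 11.7, 1.53 and 2.85 in N2_Star, and 3.68, 2.95 and 2.33 in N2, with overlap between all groups and no call.

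pals-21 moved the other way in small RNA. It had 0.660, 0.288 and 0.651 CPM in MY16_Star, 1.15, 0.305 and 0.297 in MY16, 6.66 and 2.18 in N2_Star, and 4.90, 3.97 and 7.14 in N2. Every library of the MY16 groups held 2 to 4 counts of it, which is near the floor. For MY16 against N2 the log2 fold change was -3.53 ± 0.67 (SE), with an adjusted p of 0.00281 in edgeR's test, and -3.22 ± 0.63 for MY16_Star against N2_Star, with an adjusted p of 0.00459. Without N2_Star replicate 1 the value for MY16_Star against N2_Star was -2.16, with an adjusted p of 0.121. pals-21 had at most 1 count in any mRNA library.

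pals-40, at the other end of the cluster, was higher in MY16 than in N2 in small RNA, with 1 library far above the rest. It had 5.72, 5.84 and 5.21 CPM in MY16_Star, 46.4, 10.5 and 7.72 in MY16, 4.06 and 0.436 in N2_Star, and 3.68, 1.78 and 3.25 in N2. The log2 fold change for MY16 against N2 was 2.85 ± 0.76 (SE), with an adjusted p of 0.0209 in edgeR's test. Without MY16 replicate 1 it was 1.69 with an adjusted p of 0.0805, and the call was lost. It was also lost without N2 replicate 1, at an adjusted p of 0.0573, and without N2 replicate 2, at 0.0953. pals-40 mRNA had at most 7 counts in any library.

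**Figure D3:**
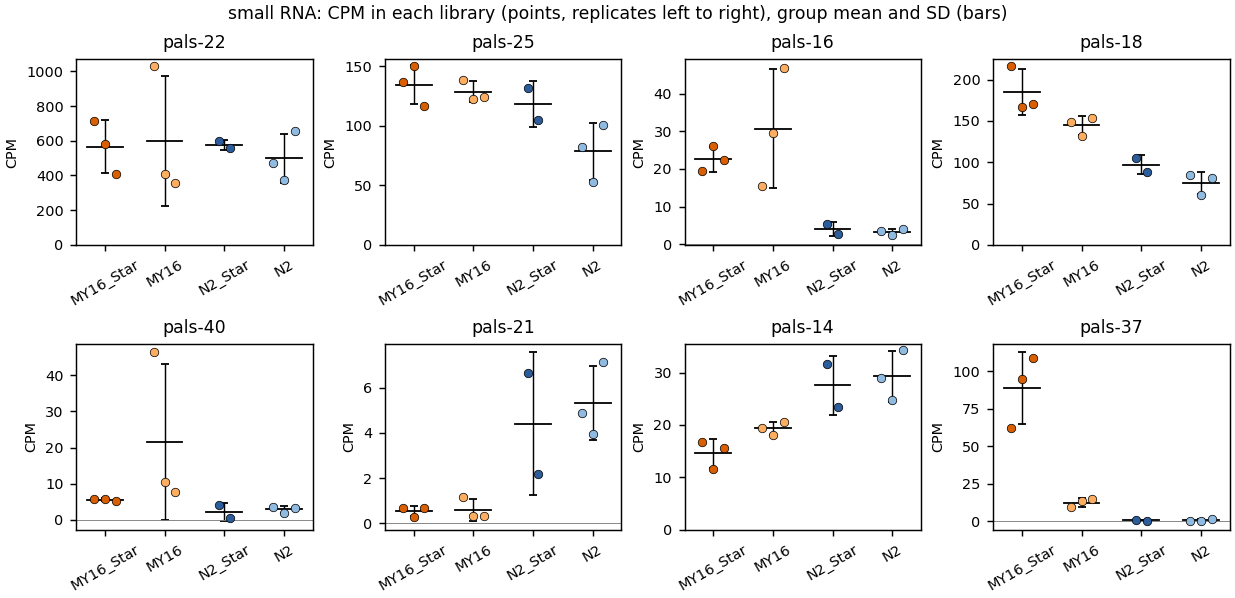
Small RNA level in CPM of 8 pals genes in each library (points), a panel for each gene with its own axis, with the groups across and bars for the group mean and SD. pals-16 and pals-37 are high in all libraries of the MY16 groups and low in all libraries of the N2 groups, whereas pals-22 overlaps between all groups.

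In the cluster of 14 members on chromosome I, which holds pals-5, 9 members had at most 9 counts in every mRNA library, and pals-4 and pals-6 passed the filter for the test. pals-4 mRNA had 0.466, 1.12 and 0.712 CPM in MY16_Star, 1.19, 0.56 and 1.24 in MY16, 2.52, 0.68 and 0.934 in N2_Star, and 1.06, 1.48 and 1.44 in N2. pals-6 mRNA had 0.233, 0.588 and 0.388 CPM in MY16_Star, 0.171, 0.204 and 1.24 in MY16, 2.26, 0.227 and 0.541 in N2_Star, and 0, 0.328 and 0.677 in N2. Both genes were highest in N2_Star replicate 1, and neither was called in mRNA. pals-5, a member whose promoter is widely used as a reporter of the response, had 0, 0.118 and 0 CPM in MY16_Star, 0.0569, 0.0509 and 0.104 in MY16, 0.805, 0 and 0.0492 in N2_Star, and 0, 0.082 and 0.0423 in N2. Its 16 counts in N2_Star replicate 1 were the only value above the floor of 3 counts. pals-14 mRNA had 0, 0.294 and 0.259 CPM in MY16_Star, 0.227, 0.102 and 0.207 in MY16, 4.07, 0.113 and 0.344 in N2_Star, and 0.312, 0.328 and 0.169 in N2. It too was high in N2_Star replicate 1, with 81 counts, and it did not pass the filter for the test. In small RNA pals-5 had at most 5 counts in any library.

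In small RNA, 2 members of the chromosome I cluster differed between the Star groups in opposite directions. pals-14 had 16.7, 11.5 and 15.5 CPM in MY16_Star, 19.5, 18 and 20.5 in MY16, 31.6 and 23.5 in N2_Star, and 28.9, 24.7 and 34.4 in N2. All 6 libraries of the MY16 groups were below all 5 of the N2 groups. For MY16_Star against N2_Star the log2 fold change of pals-14 was -0.94 ± 0.23 (SE) with an adjusted p of 0.0157 in edgeR's test, and for MY16 against N2 it was -0.58 ± 0.21 with an adjusted p of 0.0842. The call was lost without N2_Star replicate 1, at an adjusted p of 0.164, and without MY16_Star replicate 2, at 0.07. pals-2 had 4.18, 2.88 and 3.42 CPM in MY16_Star, 4.59, 5.19 and 4.01 in MY16, 1.59 and 0.654 in N2_Star, and 2.51, 1.56 and 1.95 in N2. Its log2 fold change for MY16_Star against N2_Star was 1.48 ± 0.45 with an adjusted p of 0.0499, and the call was lost in 15 of 16 alternatives. pals-2 mRNA had at most 10 counts in any library.

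pals-1, which lies alone on chromosome I, was among the 5 most abundant members in small RNA. It had 23.3, 16.4 and 16.1 CPM in MY16_Star, 10.9, 15.6 and 14.7 in MY16, 59.0 and 21.1 in N2_Star, and 29.7, 19.4 and 23.4 in N2. All MY16 libraries were below all N2 libraries, with a log2 fold change of -0.79 ± 0.35 (SE) and an adjusted p of 0.154 in edgeR's test, so it was not called. Its mRNA means were 0.515 to 0.79 CPM over the groups.

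pals-26 and pals-27, which lie on chromosome III with B0284.3 between them and are not assigned a role here, were lower in mRNA of MY16_Star than of N2_Star. pals-26 mRNA had 0.116, 0.353 and 0.388 CPM in MY16_Star, 1.25, 0.204 and 0.104 in MY16, 4.02, 0.964 and 7.28 in N2_Star, and 0.187, 0.328 and 0.339 in N2. pals-27 mRNA had 0, 0 and 0.0647 CPM in MY16_Star, 0.398, 0 and 0 in MY16, 1.86, 0.907 and 3.88 in N2_Star, and 0.187, 0 and 0.127 in N2. All 3 N2_Star libraries were above all N2 and MY16_Star libraries for both genes, with N2_Star replicate 3 the highest. Against N2_Star, MY16_Star had a log2 fold change of -3.82 ± 0.87 (SE) for pals-26, with an adjusted p of 0.0125 in edgeR's test. For pals-27 it was -6.34 ± 1.25 with an adjusted p of 0.00622. The pals-27 value rests on 1 count in MY16_Star and 132 counts in N2_Star, a ratio of 113 in favour of N2_Star with an exact 95% interval of 20.0 to 4510 that covers counting error only. Both calls held without N2_Star replicate 1, with adjusted p of 0.012 and 0.00528. Without MY16_Star replicate 1 pals-26 was at an adjusted p of 0.0546. Between N2_Star and N2 the log2 fold changes were 3.81 ± 0.87 for pals-26 and 4.21 ± 0.99 for pals-27, with adjusted p of 0.0944 and 0.109, and neither was called. They were 3.82 and 4.32 without N2_Star replicate 1, with adjusted p of 0.0718 and 0.0647.

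Small RNA of this pair gave no call. pals-26 small RNA had 2.64, 3.39 and 4.55 CPM in MY16_Star, 0.573, 7.03 and 0.743 in MY16, 9.08 and 1.96 in N2_Star, and 13.4, 4.01 and 7.79 in N2, with overlap between the groups of each comparison. pals-27 small RNA averaged 0.702 ± 0.159 CPM in MY16_Star, 0.909 ± 1 in MY16, 1.37 ± 0.396 in N2_Star and 0.757 ± 0.471 in N2 (SD, n = 3, 3, 2 and 3), and it was not tested.

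pals-32, alone on chromosome V, had a crossed pattern in mRNA. It had 1.34, 1.59 and 2.91 CPM in MY16_Star, 5.12, 3.26 and 6.42 in MY16, 6.89, 3.97 and 3.69 in N2_Star, and 1.87, 2.13 and 1.90 in N2. MY16 and N2_Star were the high groups, MY16_Star and N2 the low ones, and no high library was below a low one. Its log2 fold change was -1.33 ± 0.38 (SE) for MY16_Star against MY16, 1.30 ± 0.38 for N2_Star against N2, and 1.31 ± 0.38 for MY16 against N2, with adjusted p of 0.873, 0.173 and 0.0947 in edgeR's test. N2_Star against N2 was at 0.96 without N2_Star replicate 1, with an adjusted p of 0.272, and MY16 against N2 was then called, at 1.31 with an adjusted p of 0.0415. MY16_Star against N2_Star was called, at -1.32 ± 0.38 with an adjusted p of 0.0302, though not without N2_Star replicate 1, at -0.98 with an adjusted p of 0.0677, nor without MY16_Star replicate 1 or 2, at adjusted p of 0.107 and 0.104. The difference between the 2 Star effects was -2.63 ± 0.54 on the log2 scale, with an unadjusted p of 0.000353 and an adjusted p of 0.266. pals-32 small RNA had at most 3 counts in any library.

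pals-33, also on chromosome V, was low in mRNA outside N2_Star. It had 0.0582, 0.235 and 0.259 CPM in MY16_Star, 0.284, 0.153 and 0.104 in MY16, 3.77, 0.567 and 0.541 in N2_Star, and 0.0624, 0.328 and 0.635 in N2. N2 overlapped with N2_Star, whereas MY16_Star was below N2_Star in all libraries, with a log2 fold change of -3.11 ± 0.92 (SE) and an adjusted p of 0.0331 in edgeR's test. Without N2_Star replicate 1 it was -1.56 with an adjusted p of 0.147, and the call was lost. It was also lost without each of the 3 MY16_Star libraries, at adjusted p of 0.052 to 0.112. pals-33 small RNA averaged 0 to 0.895 CPM over the groups, with at most 7 counts in a library.

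**Figure D4:**
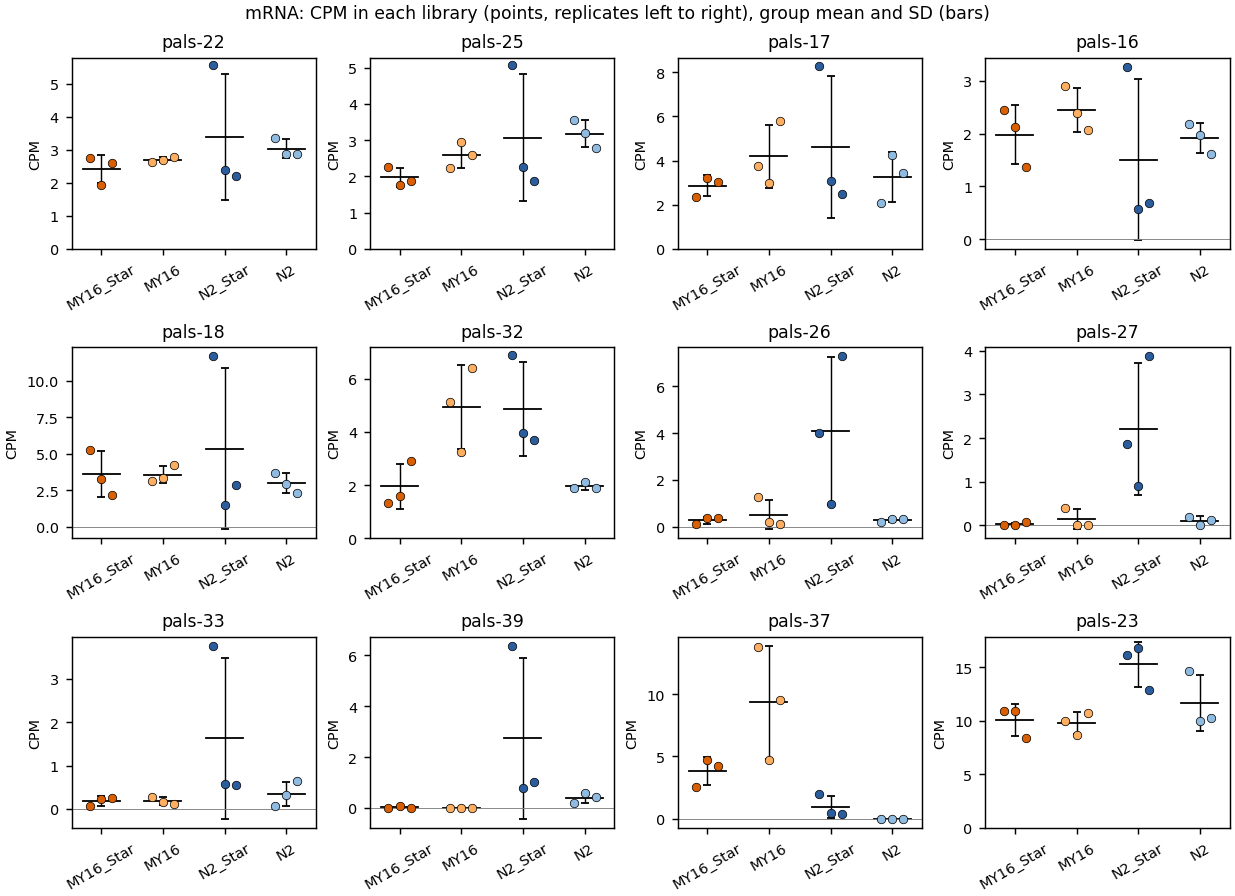
mRNA level in CPM of 12 pals genes in each library (points), a panel for each gene with its own axis, with the groups across and bars for the group mean and SD. N2_Star replicate 1 is the top point in most panels, while pals-26 and pals-27 are raised in all 3 N2_Star libraries and pals-37 has no count in N2.

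pals-37 and pals-39, which lie 142 bases apart on chromosome V at 12437440 to 12441520 and 12441663 to 12443854, differed in which groups held their mRNA. pals-37 mRNA had 2.56, 4.70 and 4.21 CPM in MY16_Star, 13.8, 4.73 and 9.52 in MY16, 1.96, 0.454 and 0.393 in N2_Star, and no count in the 3 N2 libraries. pals-39 mRNA had 0, 0.0588 and 0 CPM in MY16_Star, no count in the 3 MY16 libraries, 6.39, 0.794 and 1.03 CPM in N2_Star, and 0.187, 0.574 and 0.423 CPM in N2. Both MY16 groups thus held pals-37 and at most 1 count of pals-39, while N2 held pals-39 and no count of pals-37. N2_Star held both genes in all its libraries.

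pals-37 mRNA averaged 9.36 ± 4.54 CPM in MY16 and 0 in N2 (SD, n = 3 each), which is at least 50.1-fold higher in MY16 against the floor of 3 counts per library. edgeR's test gave an adjusted p of 0.000477 for that comparison. MY16_Star was above N2_Star with a log2 fold change of 2.01 ± 0.63 (SE) and an adjusted p of 0.0438. That call was lost in 9 of 17 alternatives, 8 of which left out a library, with adjusted p up to 0.112, and without N2_Star replicate 1 the value was 3.16 with an adjusted p of 0.00498. All MY16_Star libraries were below all MY16 libraries, with a log2 fold change of -1.29 ± 0.58 and an adjusted p of 0.873. All 3 N2_Star libraries were above all N2 libraries, and the adjusted p was 0.0836. For pals-39, MY16_Star was below N2_Star with a log2 fold change of -6.65 ± 1.25 and an adjusted p of 0.007. It rests on 1 count in MY16_Star and 162 in N2_Star, a ratio of 139 in favour of N2_Star with an exact 95% interval of 24.6 to 5520. The pals-39 call held without N2_Star replicate 1, at an adjusted p of 0.00428. For MY16 against N2, where all MY16 libraries were at 0, pals-39 was not called, at an adjusted p of 0.172, and was at least 1.87-fold lower in MY16 against the floor; without N2_Star replicate 1 the adjusted p was 0.021.

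Small RNA of pals-37 was higher in the MY16 groups and, within them, higher in MY16_Star than in MY16. It had 62.3, 95.1 and 109 CPM in MY16_Star, 9.17, 13.1 and 14.7 in MY16, 0.698 and 0.218 in N2_Star, and 0.292, 0.223 and 1.30 in N2. The lowest MY16_Star library was above the highest MY16 library, and the lowest MY16 library was above every N2_Star and N2 library. MY16_Star averaged 88.9 ± 24.1 CPM and MY16 12.3 ± 2.85 CPM (SD, n = 3 each), a ratio of means of 7.21. The log2 fold change for MY16_Star against MY16 was 2.80 ± 0.31 (SE), with an adjusted p of 0.000818 in edgeR's test. It was 5.32 ± 0.46 for MY16 against N2, with an adjusted p of 7.02e-06, and 7.26 ± 0.49 for MY16_Star against N2_Star, with an adjusted p of 2.64e-06. All 3 calls held in every alternative run. pals-39 small RNA averaged 1.08 ± 0.211 CPM in MY16_Star, 0.884 ± 0.227 in MY16, 0.286 ± 0.404 in N2_Star and 0.433 ± 0.75 in N2 (SD, n = 3, 3, 2 and 3), and it was not tested.

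pals-37 overlaps the annotated antisense RNA gene anr-30 over 1313 bases. In mRNA anr-30 had no count in MY16_Star, MY16 or N2 and at most 3 counts in an N2_Star library, and in small RNA it had at most 1 count. Whether counting used strand is not stated, so reads of the 2 genes may not be told apart where they overlap.

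Some neighbours of pals-37 also differed between the isolates. srh-25, a gene of a chemoreceptor family next to pals-37, had mRNA means of 5.09 ± 0.756 CPM in MY16_Star and 7.11 ± 0.933 CPM in MY16 and no count in N2_Star or N2 (SD, n = 3 each). Its small RNA averaged 21.4 ± 5.50 CPM in MY16_Star, 15.9 ± 2.82 in MY16, 0.141 ± 0.109 in N2_Star and 0 in N2. C54D10.13, the next gene, had small RNA means of 17.8 ± 4.29 CPM in MY16_Star, 16.6 ± 5.49 in MY16, 0.254 ± 0.359 in N2_Star and 0.0492 ± 0.0453 in N2. For MY16 against N2, edgeR's adjusted p was 3.51e-05 for srh-25 mRNA, 3.12e-06 for srh-25 small RNA and 6.44e-06 for C54D10.13 small RNA. C54D10.13 mRNA averaged 4.44 ± 0.643 CPM in MY16 and 1.05 ± 0.16 in N2 (SD), with an adjusted p of 0.00551 in that test. It averaged 3.18 CPM in MY16_Star and 2.93 in N2_Star, which gave no call. No alternative analyses were run for this mRNA. On the other side egl-10, which encodes a regulator of G protein signalling, had small RNA means of 134 ± 5.72 CPM in MY16_Star, 321 ± 59.7 in MY16, 10.6 ± 4.25 in N2_Star and 8.59 ± 3.51 in N2. Its mRNA was not called for MY16 against N2, at an adjusted p of 0.956 in edgeR's test.

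Of the 5 neighbours within 10 kb that were tested in mRNA, 2 were higher in MY16 than in N2, against 1.72% of all tested genes. C54D10.10, F28C1.1 and egl-10 were not called in mRNA. Of the 4 tested in small RNA, 3 were higher in MY16 than in N2, against 8.55% of all tested genes, and F28C1.1 was not called. None of these 4 was called higher in MY16_Star than in MY16. Their log2 fold change in that comparison was 0.42 for srh-25, with an adjusted p of 0.786 in edgeR's test, 0.12 for C54D10.13, with an adjusted p of 0.989, -0.20 for F28C1.1, with an adjusted p of 0.872, and -1.25 for egl-10, with an adjusted p of 0.0427, against 2.80 for pals-37. The egl-10 call was lost without any 1 of 8 libraries, at adjusted p of 0.0607 to 0.178.

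**Figure D5:**
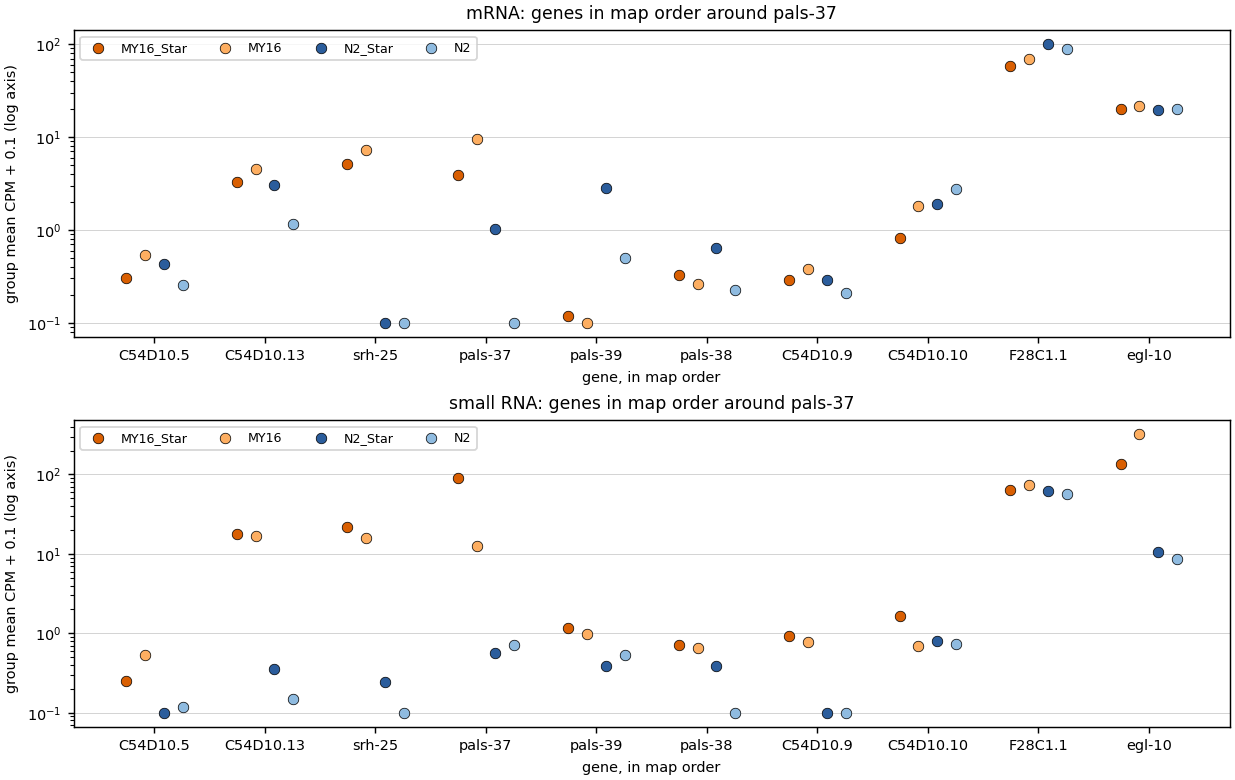
Group mean of CPM + 0.1 on a log axis for pals-37, pals-39, pals-38 and the genes within 10 kb of them, in chromosome order, mRNA above and small RNA below, a point for each group. Small RNA of C54D10.13, srh-25, pals-37 and egl-10 is high in both MY16 groups, and for pals-37 MY16_Star, at 88.9 CPM, lies above MY16, at 12.3 CPM.

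Few members passed the test between a Star group and the isolate it is named after. For MY16_Star against MY16, mRNA of 0 of 19 members was called by edgeR, against 0.0215% of all tested genes, with 1 member, against 4.43% of all tested genes, at an unadjusted p under 0.05 and 0 members, against 0.0138% of all genes it tested, called by DESeq2. In small RNA 1 of 17 members, pals-37, was higher in MY16_Star than in MY16 and 0 were lower, against 0.572% and 0.449% of all tested genes. For N2_Star against N2, mRNA of 0 members was called by edgeR, against 0.15% of all tested genes, with 6 members, against 12.1% of all tested genes, at an unadjusted p under 0.05 and 4 members, against 2.24% of all genes, called by DESeq2, which were pals-26, pals-27, pals-32 and pals-37. In small RNA 0 members were called in that comparison, against 0.0245% of all tested genes, with pals-25 alone, against 2.71% of all tested genes, at an unadjusted p under 0.05 and 0 members, against 0.113% of all genes, called by DESeq2.

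In mRNA 17 of the 19 tested members had a positive log2 fold change for N2_Star against N2, with a median of 0.85, against -0.01 for all tested genes. Without N2_Star replicate 1 the members' median was -0.03. In that library 18 of the 19 members were above every N2 library, against 7 in N2_Star replicate 2 and 6 in N2_Star replicate 3. The matching counts over all tested genes, also for the 17 positive values, were not made. These member counts are therefore not read as particular to the family. The test of the difference between the 2 Star effects called 0 members by edgeR in mRNA, against 0% of all tested genes, with 4, against 13.1% of all tested genes, at an unadjusted p under 0.05 and 3, against 0.578% of all genes, called by DESeq2. In small RNA it called 0 members, against 0.368% of all tested genes, with pals-37 alone, against 4.26% of all tested genes, at an unadjusted p under 0.05 and 0, against 1.07% of all genes, called by DESeq2. For pals-37 small RNA the difference between the Star effects was 1.94 ± 0.75 (SE) on the log2 scale, with an adjusted p of 0.967.

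Other genes of the response were read from short lists of known members. Of 5 regulators outside the family, mRNA of zip-1, a transcription factor that promotes the response, and sta-1, a repressor of it, was lower in MY16_Star than in N2_Star, against 14.8% of all tested genes. zip-1 mRNA averaged 7.50 ± 1.63 CPM in MY16_Star and 16.4 ± 7.41 CPM in N2_Star, and sta-1 mRNA 5.52 ± 0.767 and 9.57 ± 1.72 CPM in the same 2 groups (SD, n = 3 each), with adjusted p of 0.027 and 0.0276 in edgeR's test. zip-1 had 24.9 CPM in N2_Star replicate 1 and 12.4 and 11.8 CPM in the other 2 N2_Star libraries. Its log2 fold change was -1.13, and -0.69 with an adjusted p of 0.0629 without N2_Star replicate 1; the call was also lost without MY16_Star replicate 1 or 2, at 0.1 and 0.0723. For sta-1 it was -0.79, and -0.87 with an adjusted p of 0.0174 without N2_Star replicate 1, and the call was lost without any 1 of 7 other libraries, at adjusted p of 0.0521 to 0.145. The list's median log2 fold change was -0.47 in that comparison, against -0.12 for all tested genes. The other comparisons of the regulators' mRNA gave 0 calls by edgeR, against 0% to 4.03% of all tested genes. They gave 0 members at an unadjusted p under 0.05, against 4.43% to 13.1% of all tested genes. In small RNA zip-1 was lower and sta-1 higher in both MY16 groups. Over all tested genes, 10% were lower and 8.55% higher for MY16 against N2, and 8.66% and 5.82% for MY16_Star against N2_Star. zip-1 small RNA averaged 3.54 ± 1.60 CPM in MY16 and 11.8 ± 1.02 CPM in N2, and sta-1 small RNA 11.7 ± 4.45 CPM in MY16 and 3.31 ± 1.08 CPM in N2 (SD, n = 3 each), with adjusted p of 0.0032 and 0.00229. MY16_Star against N2_Star gave calls of the same signs, with adjusted p of 0.00689 and 0.0115; without N2_Star replicate 1 these were 0.0679 and 0.0768, and sta-1 was at 0.0904 without N2_Star replicate 2.

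Of 7 genes of the response's CUL-6 ubiquitin ligase, 5 were tested in mRNA and skr-4, a Skp1-like subunit, was called. It was lower in MY16 than in N2 and in MY16_Star than in N2_Star, against 2.31% and 14.8% of all tested genes. The median log2 fold change of those 5 was 0.46 for MY16 against N2 and -0.21 for MY16_Star against N2_Star. skr-4 mRNA averaged 0.301 ± 0.106 CPM in MY16 and 14.1 ± 1.40 CPM in N2 (SD, n = 3 each), with an adjusted p of 0.000143 in edgeR's test. Its small RNA was the reverse, at 11.2 ± 5.70 CPM in MY16 and 2.23 ± 1.15 CPM in N2, with an adjusted p of 0.00628. In small RNA 2 of the 7 were tested, and the other, skr-3, was not called. Over all tested genes, small RNA of 8.55% was higher for MY16 against N2 and of 5.82% for MY16_Star against N2_Star. MY16_Star against N2_Star gave calls of the same signs for skr-4, with adjusted p of 3.67e-05 in mRNA, or 9.11e-06 without N2_Star replicate 1, and 0.0299 in small RNA. The small RNA call was lost without MY16_Star replicate 1 or 2 and without either N2_Star library, at adjusted p of 0.0771 to 0.15. In N2_Star replicate 1 skr-4 mRNA reached 54.1 CPM and skr-5 mRNA 4.48 CPM, against 15.9 and 19.9 CPM and 0.397 and 0.443 CPM in the other 2 N2_Star libraries. cul-6, the cullin of that ligase, had 3.92 CPM in N2_Star replicate 1 and 6.18 and 8.01 CPM in the other 2.

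Of 5 other response genes, eol-1 was tested in mRNA and was not called, with 3.52 CPM in N2_Star replicate 1 and 0.283 and 0.246 CPM in the other 2 N2_Star libraries. F26F2.1 was tested in small RNA, where it had no count in either MY16 group. It averaged 2.11 ± 0.517 CPM in N2_Star (SD, n = 2) and 3.01 ± 1.5 CPM in N2 (SD, n = 3). The adjusted p in edgeR's test was 0.00411 for MY16_Star against N2_Star and 0.00249 for MY16 against N2. Of all tested genes 8.66% and 10% were lower in these comparisons. F26F2.3 and F26F2.4, which were not tested, also had no small RNA count in either MY16 group. None of these genes had an mRNA count there either. Whether they are lost or divergent in MY16 was not tested. Of 7 genes needed for RNA silencing, 2 were called in mRNA, both higher in MY16_Star than in N2_Star, against 7.69% of all tested genes, with a median log2 fold change of 0.10 over the 7. In small RNA edgeR called 0 of the 7 in any comparison. For MY16_Star against N2_Star 14.5% of all tested genes were called, and 1 of the 7 was at an unadjusted p under 0.05, against 28.8%. hrde-1, a nuclear Argonaute of the germline, averaged 824 ± 46.5 CPM in MY16_Star and 487 ± 115 CPM in N2_Star (SD, n = 3 each), with an adjusted p of 0.0119, or 0.00912 without N2_Star replicate 1. The 4 germline markers were also higher in MY16_Star in this comparison, with log2 fold changes of 0.41 to 0.97, against 0.76 for hrde-1, and their part in its difference was not tested. rde-4, a double-stranded RNA binding protein of the RNA interference pathway, averaged 193 ± 11.8 and 150 ± 6.59 CPM in the same 2 groups, with an adjusted p of 0.0381, and this call was lost without any 1 of 8 libraries, among them N2_Star replicate 1, at adjusted p of 0.0509 to 0.105.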

How the data were processed

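Whole-worm mRNA and small RNA were counted per gene. The files hold whole-number counts per gene, deposited by the authors without normalization. Per the submitters' processing notes, cutadapt, FastQC, Bowtie2, HTSeq, DESeq2 and the build ce11 were used; their settings are not given in the sources used here. Summary lines that name no gene, 7.84% to 17.7% of mRNA and 38.7% to 46.6% of small RNA counts, were left out. In the mRNA tables reads of low alignment quality, 5.37% to 9.28%, were set aside; in small RNA the share was 0%. Gene IDs were matched to symbols and to RefSeq's WBcel235 table, with 44017 of 46904 named.

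Each assay was fitted whole with edgeR 4.0.16 in R 4.3.3 (TMM, its default filter on low counts, quasi-likelihood F-test, 4 groups, no block), with Benjamini-Hochberg adjustment over 13983 genes in mRNA and 12241 in small RNA. The procedure was tested on simulated counts for MY16_Star against MY16, with changes set only in genes above a level that many members did not reach. In mRNA it recovered 38% of 2-fold and 81% of 4-fold changes, and in small RNA 15.2% and 66.3%. Of 127 simulated mRNA calls 8 were false, and of 85 small RNA calls 5. A member that was not called may thus still differ by such a fold. Each SE is the absolute log2 fold change over the square root of F. Intervals and floors cover counting error only. Each p-value of edgeR's test sets a difference between groups against the spread between these samples. That spread was estimated over all 4 groups, with information shared across genes. DESeq2 1.42.0 and the other alternatives are given in the closing section. Named genes were the members with known roles, every called member and the 5 highest by mean CPM in each assay. The members and lists were chosen with earlier results of these data known.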

Additional observations from a re-analysis of the deposited data

How the results depend on the processing

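Counts of called members moved with the analysis, and the cause was not tested unless stated. With the stricter filter, a mean of at least 5 CPM, 2 members could be tested in mRNA. The count fell to 0 for MY16 against N2, against 1, and to 1, pals-23, for MY16_Star against N2_Star, against 6. Over all genes that filter called 2.1% and 13.4% in these comparisons, against 4.03% and 22.5% with the default filter. With no filter the counts were 3 for N2_Star against N2 and 1 for the difference between the Star effects in mRNA, both 0 with the filter, and in small RNA 11 for MY16 against N2, against 6, and 2 for MY16_Star against MY16, against 1. Over all genes those 4 settings called 1.07%, 0.0229%, 9.18% and 1.76%, against 0.15%, 0%, 18.6% and 1.02% with the filter. DESeq2's Wald test called 3 members in mRNA for MY16 against N2, with 4.42% of all genes. It called 4 for N2_Star against N2, with 2.24%, and 3 for the difference between the Star effects, with 0.578%. With only the groups of a comparison in the fit, mRNA gave 2 for MY16 against N2 and 3 for MY16_Star against N2_Star. Over all genes those fits called 5.26% and 6.01%. Leaving out 1 library at a time gave ranges of 1 to 3 for MY16 against N2, 2 to 6 for MY16_Star against N2_Star, 0 to 1 for N2_Star against N2 and 0 to 0 for the difference between the Star effects in mRNA. In small RNA the ranges were 4 to 7 for MY16 against N2, 3 to 6 for MY16_Star against N2_Star and 1 to 1 for MY16_Star against MY16. In mRNA the 3 for MY16 against N2 came without N2_Star replicate 1, with pals-32 and pals-39 added. For MY16_Star against N2_Star in mRNA there were 2 without MY16_Star replicate 1, 3 without MY16_Star replicate 2, and 5 without N2_Star replicate 1, of which 4 were shared with the 6. The 3 in small RNA came without N2_Star replicate 1, which leaves 1 N2_Star library that is assumed to vary like the other groups. pals-37 small RNA for N2_Star against N2 was 0.86 and became -0.46 without N2_Star replicate 1, with an adjusted p of 1 in both; leaving out single libraries gave -0.46 to 1.2.

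Libraries with the same replicate number were not taken as pairs. The correlations of their deviations from group means ran from -0.188 to 0.591 in mRNA, with 14 of 18 pairs over 0.1 and 9 of 12 libraries closest to their own number, and from -0.261 to 0.391 in small RNA, with 5 of 15 pairs over 0.1 and 7 of 11 libraries. With the replicate number as a block, the mRNA counts were 1 for MY16 against N2, 0 for MY16_Star against MY16, 6 for MY16_Star against N2_Star, 1 for N2_Star against N2 and 0 for the difference between the Star effects. With that block the small RNA counts were 7, 1, 6, 0 and 0 in the same order. Over all genes the block called 5.13%, 0.0215%, 28.8%, 0.78% and 0.00715% in mRNA, in that order. In small RNA it called 17.3%, 0.923%, 13.2%, 0.0245% and 0.351%. Depth limits the scarce members: those at or near 3 counts in a library are not detectable there rather than absent. The same alternatives for genes outside the family and for pals-23, pals-24, pals-32 and pals-39 in further comparisons were added after the data were seen, and none of them changed sign.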
